A study of Mus musculus with 6 samples.

Results

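The miR-17-92 cluster is a run of 6 microRNA hairpins, Mir17, Mir18, Mir19a, Mir20a, Mir19b-1 and Mir92-1, carried on 1 primary transcript. Its members were taken by name from the deposited count entries, sense strand only and both arms of each hairpin, which gave 12 mature arms of the 1061 arms and 6 hairpins of the 705 hairpin loci analysed. All 12 arms had at least 1 read in the 6 libraries together, and 9 of the 12 had a mean of at least 10 reads per library. Mir18 encodes miR-18a and Mir92-1 encodes miR-92a.

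The series profiled small RNA of the heart in male mice of the inbred strain C57BL/6J, wild type and 18 weeks old, with 6 samples of 1 library each, called here heart 1 to heart 6. The samples form 1 group, with no treatment and no mutant allele, so members were compared with each other and with related loci inside each library, not between conditions. The labels call the tissue whole heart but their extraction text speaks of the apex of the ventricles. The hearts were bulk tissue, so fewer cells of a type and less RNA per cell cannot be told apart. The libraries held between 3966197 and 6007351 counts, so that 10 reads were worth between 1.66 and 2.52 counts in 1000000 counts of a library (CPM). Cardiac muscle markers were present in every library, at between 94453 and 106878 CPM for the list miR-1a, miR-133a, miR-208a and miR-499. Hearts 4 and 5 lay at the ends of the range of the smooth muscle markers miR-143 and miR-145, with 66181 and 114080 CPM against 83807 to 103189 CPM in the other 4 hearts, and heart 5 was also highest in the fibroblast list miR-199a and miR-214, with 5754 CPM against 3128 to 3713 CPM elsewhere.

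MicroRNAs are cut in the nucleus from hairpins of a long primary transcript by Drosha, and in the cytoplasm by Dicer into a duplex, of which mainly one strand is kept in an Argonaute protein. The strand nearer the 5′ end of the hairpin is the 5p arm and the other the 3p arm, and the seed, bases 2 to 8 of the mature strand, does most of the target recognition. The miR-17-92 cluster is known as a MYC target that promotes proliferation and survival, its loss in mice disturbs heart and lung development, and miR-92a has been studied as a brake on new vessel growth. Paralogous clusters lie on the X chromosome (the miR-106a-363 cluster) and in the gene Mcm7 (the miR-106b-25 cluster).

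The 6 hairpins fall into 4 seed groups. The sequences of their more abundant arms are shown with the relatives that the comparisons below turn on, from RefSeq on GRCm38.p6, written 5′ to 3′ with the seed in capitals.
miR-17-5p: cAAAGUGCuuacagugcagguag
miR-20a-5p: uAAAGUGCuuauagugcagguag
miR-93-5p (Mcm7 cluster): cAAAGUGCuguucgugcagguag
miR-106b-5p (Mcm7 cluster): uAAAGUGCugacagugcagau
miR-18a-5p: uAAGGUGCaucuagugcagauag
miR-19a-3p: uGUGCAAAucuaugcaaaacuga
miR-19b-3p (Mir19b-1 and Mir19b-2): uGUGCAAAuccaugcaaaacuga
miR-92a-3p (Mir92-1 and Mir92-2): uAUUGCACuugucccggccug
miR-25-3p (Mcm7 cluster): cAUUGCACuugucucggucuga

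Counting from 1 at the 5′ end of the strand named first, miR-17-5p and miR-20a-5p were identical at 21 of 23 bases and differed by C1U and C12U. miR-18a-5p differed from miR-17-5p at 6 of 23 bases, one of them, A4G, inside the seed. miR-19a-3p and miR-19b-3p differed by U11C alone. The miR-19b-3p of Mir19b-1 and of Mir19b-2 on the X chromosome had the same 23 bases, and the miR-92a-3p of Mir92-1 and of Mir92-2 on the X chromosome the same 21 bases. A read of either of those strands could therefore have come from either locus, and its place in the counts rests on how the reads were assigned.

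The cluster spans chr14:115043671-115044506 on the plus strand of GRCm38, 836 bases, and all 6 hairpins lie in exon 2 of the long non-coding host gene Mir17hg. Between the facing arms of neighbouring hairpins lay 124 bases from Mir17 to Mir18, 82 to Mir19a, 112 to Mir20a, 79 to Mir19b-1 and 56 to Mir92-1. Among these neighbouring pairs the closest, Mir19b-1 and Mir92-1, was the furthest apart in read level, at 14.3-fold. The most distant pair, Mir17 and Mir18, came next, at 5.20-fold.

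Hairpins of the same transcript were read at very different levels. With both arms summed, from the first hairpin to the last, Mir17 had 79.9 ± 13.3 CPM, Mir18 15.4 ± 4.35 CPM, Mir19a 27.5 ± 4.05 CPM, Mir20a 85.8 ± 12.2 CPM, Mir19b-1 162 ± 23.0 CPM and Mir92-1 2321 ± 281 CPM (SD, n = 6 each). Mir92-1 alone supplied 86.1% ± 2.63 of the reads of the cluster, Mir19b-1 6.09% ± 1.16, Mir20a 3.23% ± 0.666, Mir17 2.999% ± 0.594, Mir19a 1.03% ± 0.210 and Mir18 0.581% ± 0.174. The whole cluster held 2691 ± 252 CPM, or 0.269% ± 0.0252 of all counts, and 371 ± 51.2 CPM without Mir92-1. Reads were counted per mature arm and were not scaled by length, and the count files do not give read lengths. Adapters also ligate better to some RNA ends than to others, so these are ratios of reads, not of molecules.

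**Figure D1:**
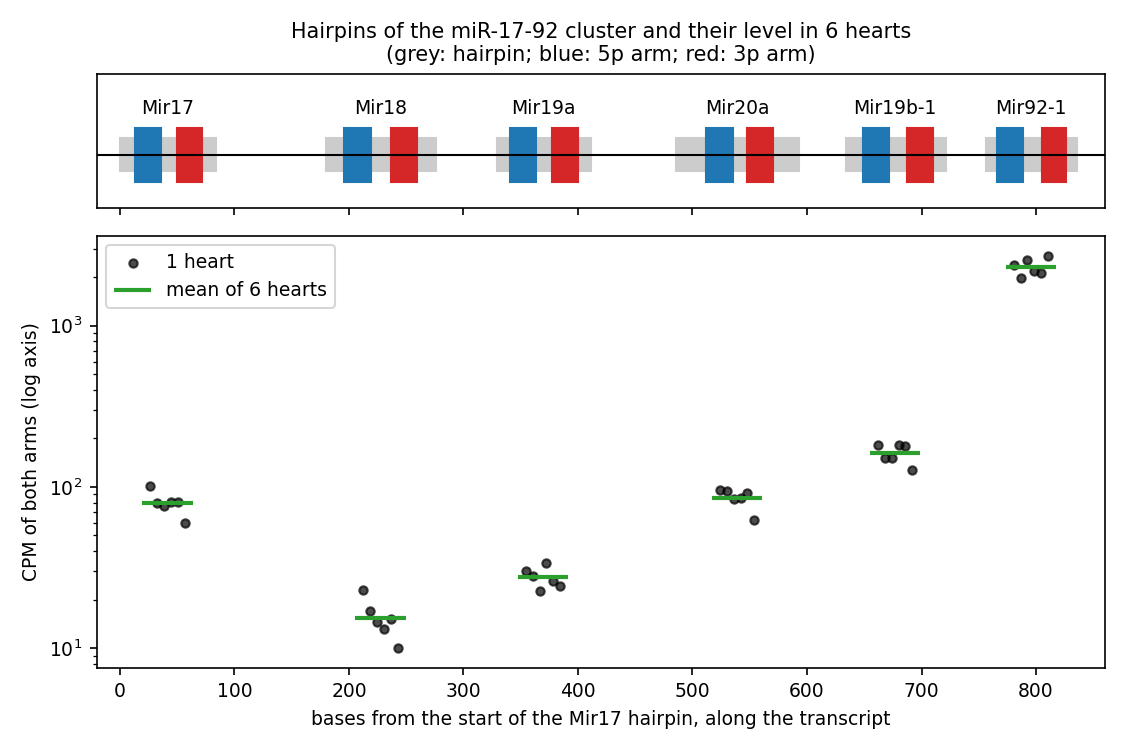
Map of the 6 hairpins along the transcript (top; grey, hairpin; blue, 5p arm; red, 3p arm) and the summed CPM of both arms in each of the 6 hearts on a log axis (bottom; points, hearts; green line, mean). The level falls at Mir18 and is higher at each later hairpin, up to 2321 CPM at Mir92-1.

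Neighbouring hairpins were compared within each library by edgeR's quasi-likelihood test, with Benjamini-Hochberg adjustment over 107 such pairs of the genome, and a pair was called if it differed by 2-fold or more with an adjusted p below 0.05. Of the 5 neighbouring pairs of the cluster 3 were called, against 80.4% of all 107 pairs. Of the 5 pairs 2 were called with the downstream hairpin higher, where 44.9% of the 107 were. The median ratio was 3.12-fold in the cluster and 6.56-fold over all pairs.

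Mir17 had 101.4, 79.3, 76.7, 81.2, 80.9 and 59.6 CPM in hearts 1 to 6, against 22.9, 17.1, 14.4, 13.1, 15.1 and 9.995 CPM for Mir18. The Mir17 values did not overlap those of Mir18, and heart 1 was highest and heart 6 lowest for both. Mir17 was 5.20-fold higher than Mir18, a log2 ratio of 2.38 ± 0.09 (SE derived from the edgeR F statistic, edgeR adjusted p = 3.57e-12).

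Mir18 was below Mir19a, which had 30.2, 28.2, 22.5, 33.5, 26.1 and 24.3 CPM, in 6 of 6 hearts, by a log2 ratio of -0.84 ± 0.13 (edgeR adjusted p = 3.5e-05). That is 1.79-fold, under the 2-fold threshold, and the ranges of the hairpins overlapped slightly across hearts. Mir19a was 3.12-fold lower than Mir20a, with a log2 ratio of -1.64 ± 0.09 (edgeR adjusted p = 2.88e-10). Mir20a had 96.0, 93.8, 84.7, 85.7, 91.9 and 62.6 CPM, with heart 6 well below the other 5.

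Mir20a was lower than Mir19b-1, which had 183, 150.2, 150.2, 183, 179 and 127 CPM, in 6 of 6 hearts. The log2 ratio was -0.92 ± 0.07, or 1.89-fold, and so not called (edgeR adjusted p = 7.8e-09). With the reads of both miR-19b loci summed it was -1.23 and was called (edgeR adjusted p = 3.35e-10). Mir19b-1 in turn was 14.3-fold lower than Mir92-1, which had 2365, 1987, 2559.5, 2175, 2116 and 2721 CPM, with a log2 ratio of -3.84 ± 0.11 (edgeR adjusted p = 1.07e-13). Heart 6 was thus lowest for Mir19b-1 and highest for Mir92-1. For each of the 5 pairs all 6 hearts had the same direction, which gives an exact two-sided sign-flip permutation p = 0.03125, the smallest possible with 6 hearts. The labels name separate samples but no further detail, so these p-values concern only the spread between them.

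In order of level the hairpins ran Mir92-1, Mir19b-1, Mir20a, Mir17, Mir19a, Mir18. Among neighbours in this order only Mir20a with Mir17 and Mir19a with Mir18 had overlapping ranges. The Mir17 to Mir20a read ratio was 0.931 ± 0.0736 over the hearts, with Mir17 higher in 1 of 6. On the mature 5p strands, miR-17-5p had 88.2, 69.1, 69.1, 73.4, 68.3 and 50.3 CPM and miR-20a-5p 94.3, 91.6, 83.0, 84.5, 87.6 and 61.4 CPM. miR-17-5p was lower in 6 of 6 hearts by a log2 ratio of -0.27 ± 0.09 (edgeR adjusted p = 0.0106, and 0.0562 without the library as a block), which is 1.21-fold and was not called.

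Each hairpin was read mainly from one arm, and the arm differed along the transcript. Mir17, Mir18 and Mir20a gave mostly 5p reads, while Mir19a, Mir19b-1 and Mir92-1 gave mostly 3p reads. All 6 hairpins passed the edgeR quasi-likelihood test of 5p against 3p counts at a 2-fold ratio or more, where 90.5% of the 232 hairpins tested in the table did. Of all 232, 50.4% were called with the 5p arm higher (3 hairpins of the cluster) and 40.1% with the 3p arm higher (the other 3). The median ratio between the arms was 67.8-fold in the cluster and 35.4-fold in the table.

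**Figure D2:**
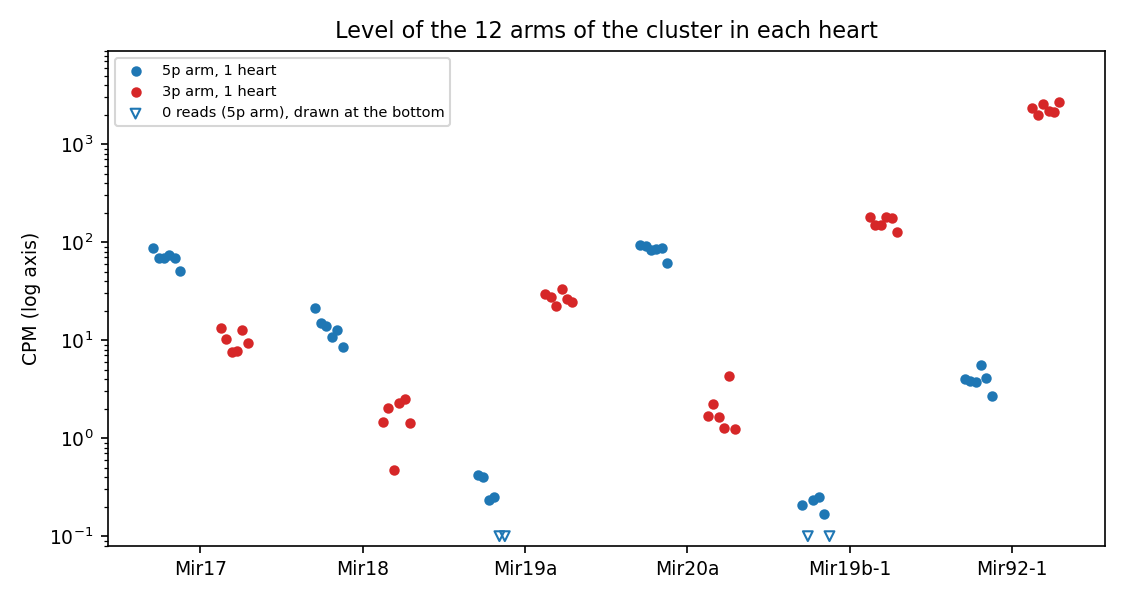
CPM of the 5p (blue) and 3p (red) arm of each hairpin in each of the 6 hearts on a log axis, with open triangles at the bottom for 5p arms with 0 reads in a heart. The arms of a hairpin do not overlap, and the higher one is 5p for Mir17, Mir18 and Mir20a and 3p for the other 3.

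Mir17 and Mir18 were the least one-sided of the 6, with intervals of the arm ratio that overlapped. miR-17-5p had 420, 343, 292, 291, 410 and 282 reads in hearts 1 to 6, against 63, 51, 32, 31, 76 and 52 reads for miR-17-3p. The 5p arm was higher in every heart and held 87.2% ± 2.62 of the reads of the hairpin, with 84.4% the lowest heart and 90.4% the highest. The summed reads gave 6.68 5p reads per 3p read (exact 95% interval 5.92 to 7.56), and the log2 ratio was 2.76 ± 0.14.

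Mir18 had fewer reads. miR-18a-5p had 102, 75, 59, 43, 76 and 48 reads against 7, 10, 2, 9, 15 and 8 reads for miR-18a-3p, whose mean of 8.50 reads was under the minimum of 10. The 5p arm held 88.4% ± 5.65 of the reads, with a ratio of 7.90 (5.89 to 10.8) and a log2 ratio of 2.96 ± 0.22. This hairpin had the largest adjusted p of the 6, 7.48e-38 by edgeR, a value that uses a spread edgeR pooled over all hairpins. The exact two-sided sign-flip permutation p was 0.03125 for each of the 6 hairpins.

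Mir20a was the most one-sided of the 3 hairpins read from the 5p arm. miR-20a-5p had 449, 455, 351, 335, 526 and 344 reads against 8, 11, 7, 5, 26 and 7 reads for miR-20a-3p. The 5p share was 97.6% ± 1.18, lowest in heart 5, which had more 3p reads than any other heart. The ratio was 38.4 (30.0 to 50.1). miR-17-5p and miR-20a-5p differ at 2 of 23 bases, while the arm ratios of their hairpins had intervals that did not overlap.

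The hairpins read from the 3p arm were more one-sided. miR-19a-5p had 2, 2, 1, 1, 0 and 0 reads against 142, 138, 94, 132, 157 and 136 reads for miR-19a-3p, so 133 3p reads were counted per 5p read (60.9 to 364). miR-19b-1-5p had 1, 0, 1, 1, 1 and 0 reads against 869, 746, 634, 725, 1073 and 713 reads for miR-19b-3p at Mir19b-1, a ratio of 1190 (464 to 4369). Both 5p arms were at or under 2 reads in every heart, within the 3 counts that a count of 0 allows, which is 0.499 to 0.756 CPM by library.

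miR-92a-1-5p was read more often than either of those, with 19, 19, 16, 22, 25 and 15 reads, against 11244, 9850, 10802, 8603, 12684 and 15232 reads for miR-92a-3p at Mir92-1. The 3p arm was thus read 590 times per 5p read (492 to 714), and the 5p share was 0.177% ± 0.0526. The log2 ratios of 5p over 3p were -6.89 for Mir19a, -9.97 for Mir19b-1 and -9.18 ± 0.16 for Mir92-1. Mir19a and Mir19b-1 had only 6 and 4 5p reads, where an SE derived from the F statistic understates counting error. No SE is therefore given for them, and the exact intervals above show that error. For Mir19b-1 and Mir92-1 the 3p reads also include whatever share of the X-chromosome strands was placed there, whereas the 5p strands carry the name of their own locus. The reads had no molecular identifiers, so all these intervals cover counting error only.

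The sequences of the hairpins with the lowest and the highest ratio between arms are given for comparison, from RefSeq on GRCm38.p6, with both mature arms in capitals. The highest ratio rests on 4 5p reads of Mir19b-1, and its interval contains that of Mir92-1, so the order of these hairpins is not settled.
Mir17: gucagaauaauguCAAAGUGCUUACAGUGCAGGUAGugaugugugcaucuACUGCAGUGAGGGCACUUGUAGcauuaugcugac
Mir19b-1: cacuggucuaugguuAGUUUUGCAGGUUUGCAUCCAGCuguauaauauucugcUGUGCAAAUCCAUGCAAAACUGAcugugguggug

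Mir17 lies at chr14:115043671-115043754 and Mir19b-1 at chr14:115044305-115044391. The arms are 14 bases apart in Mir17 and 15 bases apart in Mir19b-1. All 3 strands that dominate from the 3p side begin with U, as do miR-18a-5p and miR-20a-5p, while miR-17-5p begins with C.

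**Figure D3:**
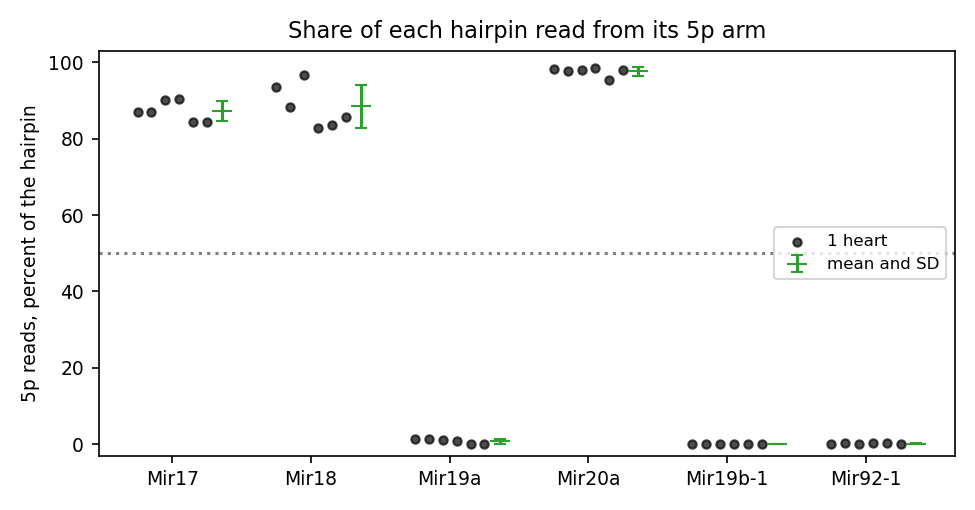
Percent of the reads of each hairpin that came from its 5p arm in each of the 6 hearts (points), with the mean and SD (green) and a dotted line at equal arms. Mir17 and Mir18 sit between 82.7% and 96.7%, Mir20a between 95.3% and 98.5%, and the other 3 hairpins at 1.43% or less.

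The strands shared with the X chromosome were divided in steady proportions. Of the miR-19b-3p reads, 81.6%, 80.6%, 81.4%, 80.9%, 78.1% and 79.0% in hearts 1 to 6 stood at Mir19b-1, a mean of 80.3% ± 1.40, and the rest at Mir19b-2. Of the miR-92a-3p reads, 92.1%, 90.9%, 91.5%, 89.1%, 91.2% and 92.7% stood at Mir92-1, a mean of 91.2% ± 1.22. The share was higher for miR-92a-3p than for miR-19b-3p in every heart, with Wilson 95% intervals that did not overlap. Summed over both loci, miR-19b-3p had 202 ± 28.3 CPM and miR-92a-3p 2537 ± 287 CPM.

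The X-chromosome strands whose sequence differs from every strand of the chromosome 14 cluster were almost unread. miR-106a-5p had 3 reads in the 6 libraries, miR-18b-5p 1, miR-18b-3p 2, miR-20b-5p 16, miR-20b-3p 1, miR-363-3p 22 and miR-363-5p 1, in all 46 reads in 7 arms. At Mir19b-2 and Mir92-2, between those hairpins, 1181 and 6440 reads were recorded for strands whose sequence is the same on both chromosomes. How the authors placed reads that fit both loci is not stated in the labels or file headers, and the origin of these reads was not tested.

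Relatives with the same seed were compared by the same edgeR test, for pairs of arms from different hairpins and with different sequences. Of 17 pairs with a strand of the cluster 12 were called, against 80.4% of the 265 pairs tested in the table. In 7 of the 17 the X-chromosome partner was under a mean of 10 reads, so the pair entered through the strand of the cluster alone and had to differ, and all 7 were called. Of the 10 pairs in which each strand reached that mean, 5 were called, against 140 of 188 such pairs in the table (74.5%). The median ratio was 3.09-fold over these 10 pairs and 4.11-fold over the 188.

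In the AAAGUGC group, miR-17-5p averaged 69.7 ± 12.1 CPM and miR-20a-5p 83.7 ± 11.7 CPM (SD, n = 6), against 476, 441, 422, 381, 430 and 387 CPM for miR-93-5p of the Mcm7 cluster, the relative with the most reads. miR-17-5p was 6.12-fold lower than miR-93-5p, with a log2 ratio of -2.61 ± 0.09 (edgeR adjusted p = 2.7e-14), and miR-20a-5p was 5.08-fold lower, with a log2 ratio of -2.34 ± 0.09 (edgeR adjusted p = 4.82e-14). In all 6 hearts both strands of the miR-17-92 cluster lay far under miR-93-5p.

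Both strands overlapped in range with miR-106b-5p, from the same Mcm7 cluster, which had 119, 87.2, 90.6, 71.4, 80.7 and 63.2 CPM. The log2 ratio of miR-20a-5p to miR-106b-5p was -0.01 ± 0.10 (edgeR adjusted p = 0.883), with miR-20a-5p higher in 3 of 6 hearts and summed reads in a ratio of 0.982 (exact 95% interval 0.928 to 1.04). miR-17-5p was lower than miR-106b-5p by a log2 ratio of -0.29 ± 0.10 (edgeR adjusted p = 0.0102, and 0.0472 without the library as a block). This held in 5 of 6 hearts (exact two-sided sign-flip permutation p = 0.0625), and the pair was not called at 2-fold. miR-17-5p was read 679 times per read of miR-106a-5p (232 to 3297) and 127 times per read of miR-20b-5p (78.2 to 223). The first of these relatives differs from miR-17-5p by U10A and the second by U10C and C12U.

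In the AUUGCAC group, miR-92a-3p at Mir92-1 had 2361, 1983, 2556, 2169, 2111 and 2719 CPM, against 1304, 1175, 1227, 1133, 1256 and 1243 CPM for miR-25-3p of the Mcm7 cluster. The ranges did not overlap. The ratio was 1.88-fold, a log2 ratio of 0.91 ± 0.06 (edgeR adjusted p = 2.35e-10), which missed the 2-fold threshold. With the reads of both miR-92a loci summed the log2 ratio was 1.05 and was called (edgeR adjusted p = 5.04e-10). miR-92a-3p was 54.4-fold higher than miR-32-5p (edgeR adjusted p = 1.22e-17) and 112-fold higher than miR-92b-3p (edgeR adjusted p = 2.51e-17). On the sums, 68415 reads of it stood against 22 reads of miR-363-3p, a ratio of 3110 (2054 to 4963).

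In the GUGCAAA group, miR-19a-3p was 5.93-fold lower than miR-19b-3p at Mir19b-1, a log2 ratio of -2.57 ± 0.10 (edgeR adjusted p = 1.23e-13). It was also lower in 6 of 6 hearts than the reads placed at Mir19b-2, by a log2 ratio of -0.55 ± 0.12 (edgeR adjusted p = 0.000289), which was not called at 2-fold. miR-18a-5p was nearly alone in the AAGGUGC group, with 403 reads against 1 read of miR-18b-5p.

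The share of each seed group that came from the cluster therefore differed. It was 23.1% ± 1.91 of 662 CPM for AAAGUGC, made up of 12.6% miR-20a-5p and 10.5% miR-17-5p, while miR-93-5p held 64.03% and miR-106b-5p 12.8%. It was 99.6% ± 0.928 of 13.8 CPM for AAGGUGC. It was 82.6% ± 1.31 of 229 CPM for GUGCAAA, with the reads placed at Mir19b-2 as the rest. It was 60.4% ± 2.54 of 3824 CPM for AUUGCAC, where miR-25-3p held 32.1% and the reads placed at Mir92-2 5.79%.

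**Figure D4:**
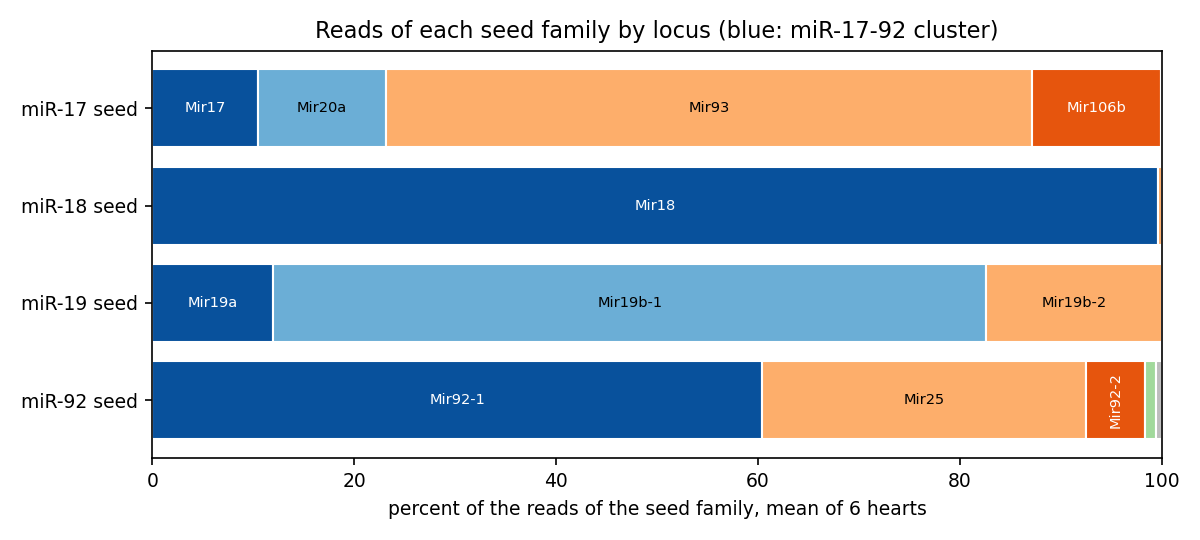
Mean share over the 6 hearts of the reads of each seed group by locus, with the loci of the miR-17-92 cluster in blue and other loci in orange, green and grey. The cluster gives 23.1% of the AAAGUGC reads (miR-17 seed), 99.6% of AAGGUGC (miR-18), 82.6% of GUGCAAA (miR-19) and 60.4% of AUUGCAC (miR-92). The slivers without a name each hold under 2% of their group.

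Levels of most strands varied between the hearts by more than counting noise. In a chi-square test of the 6 counts against library totals scaled by trimmed mean of M values (TMM), 7 of the 9 arms with a mean of at least 10 reads passed an adjusted p of 0.05, against 70.8% of 380 arms in the table. miR-19a-3p (chi-square adjusted p = 0.115) and miR-92a-1-5p (chi-square adjusted p = 0.69) did not pass. The median coefficient of variation was 17.3% over the 9 arms and 16.8% over the 380. The test passes almost any abundant strand, since 88.8% of the 232 arms with a mean of at least 100 reads passed it.

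The widest spread among the 9 arms was that of miR-20a-3p, with a coefficient of variation of 53.6% at a mean of 10.7 reads per library, and miR-18a-5p followed at a mean of 67.2 reads. After TMM scaling miR-18a-5p had 21.9, 15.8, 14.04, 9.99, 12.1 and 9.01 CPM in hearts 1 to 6, a coefficient of variation of 33.8% and a range of 2.42-fold. Heart 1 was highest and heart 6 lowest, an order shared by miR-17-5p, miR-20a-5p and miR-19b-3p at Mir19b-1. miR-92a-3p went the other way at heart 6, with 2409, 2080, 2571, 1999, 2023 and 2860 scaled CPM and a coefficient of variation of 15.04%.

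Co-variation was measured over the 6 hearts for pairs of arms from different hairpins of a genomic cluster, on log2 of TMM-scaled CPM with a prior count of 1, with exact permutation p-values adjusted over 351 such pairs of the table. None of the 33 pairs of the miR-17-92 cluster passed an adjusted p of 0.05, and 0.0% of all 351 did. The smallest p that 6 hearts allow is 0.00278 for Spearman's rho, and for Pearson's r it is 1 of 720 permutations. At an unadjusted exact p under 0.05, 3 of the 33 pairs passed by Pearson's r and 2 by Spearman's rho. Of the 318 pairs of other clusters 38 passed by Pearson's r and 21 by Spearman's rho. By Pearson's r, 11.4% of the 351 pairs passed with a positive value. The median r was 0.35 over the 33 pairs, 0.39 over the 318 pairs of other clusters and 0.00 over all 71889 pairs of arms from different hairpins.

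Of the 33 pairs of the cluster 24 had a positive r, where 237 of the 318 pairs of other clusters did. Among the more abundant strands of the 6 hairpins r was positive in 10 of 15 pairs, with a median of 0.46. With miR-92a-3p set aside, the other 5, miR-17-5p, miR-18a-5p, miR-19a-3p, miR-20a-5p and miR-19b-3p, had a positive r in 10 of 10 pairs. All pairs of miR-92a-3p had a negative r, so this count follows from setting it aside in the same data. No member of another cluster was set aside for comparison. The median of the 10 pairs was 0.68, which ran from 0.50 without heart 1 to 0.84 without heart 4. For miR-17-5p and miR-18a-5p Pearson's r was 0.92 (exact permutation p = 0.00972, adjusted p = 0.263) and Spearman's rho was 0.94 (exact p = 0.0167, adjusted p = 0.418). With the most distant hearts of miR-17-5p, 1 and 6, left out, r was 0.74. For miR-17-5p and miR-20a-5p r was 0.89 (exact permutation p = 0.0194, adjusted p = 0.292), falling to 0.73 without those hearts, and Spearman's rho was 0.83 (exact p = 0.0583). For miR-18a-5p and miR-20a-5p r was 0.89 (exact permutation p = 0.0208, adjusted p = 0.292), and 0.90 without those hearts, with Spearman's rho at 0.94 (exact p = 0.0167). The pairs of miR-19b-3p with these 3 strands rested on hearts 1 and 6. With miR-17-5p its r was 0.83 (exact permutation p = 0.0611, adjusted p = 0.431, rho 0.49, exact p = 0.356) with them and -0.74 without them. With miR-18a-5p it was 0.64 and -0.72, and with miR-20a-5p 0.73 and -0.41. Without the same hearts the r of miR-18a-5p with miR-19a-3p went from 0.27 to -0.33. That of miR-17-5p with miR-19a-3p went from 0.46 to 0.19.

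miR-92a-3p, the strand with most of the reads, did not share this direction. Its r was negative with 7 of 7 strands of other hairpins, with a median of -0.45 and values between -0.63 and -0.04, and the smallest exact permutation p of these pairs was 0.206 (adjusted p = 0.586). Without heart 6 the median was -0.02 and 4 of the 7 were negative, so this pattern rested on that library. All pairs share the same 6 libraries and their scaling.

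**Figure D5:**
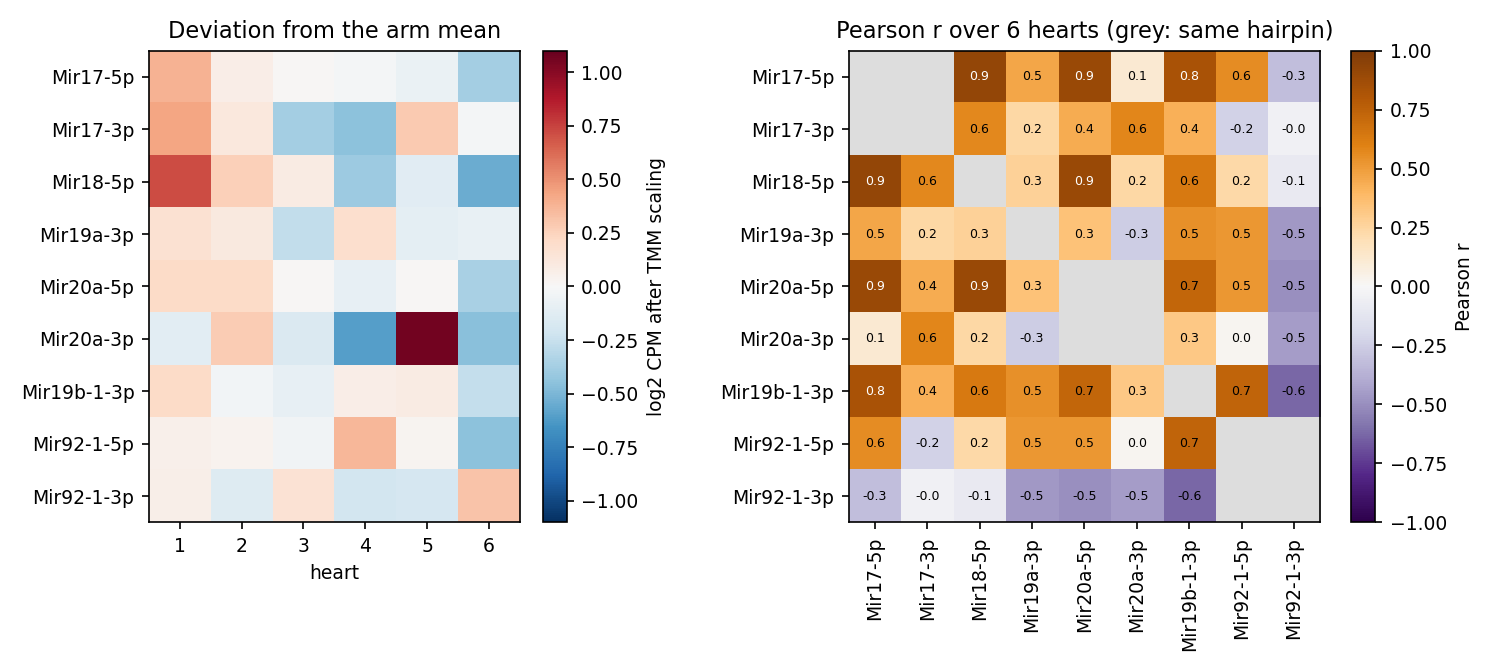
Left: log2 deviation of each of the 9 arms from its own mean in each heart, after TMM scaling. Right: Pearson r over the 6 hearts for each pair of arms, with arms of the same hairpin in grey. Heart 1 is above the mean for 8 of the 9 arms and heart 6 for 1 of 9, miR-92a-3p, whose row holds 7 of the 9 negative values.

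Blood cell markers also differed between these hearts. The erythroid list, miR-451a and miR-144, had 5879, 5170, 3752, 2265, 4126 and 2496 CPM in hearts 1 to 6, highest in heart 1 and low in hearts 4 and 6. The leukocyte list, miR-142a, miR-150 and miR-223, had 2833, 2668, 2379, 2720, 2037 and 2068 CPM, with hearts 5 and 6 low. The part of these cells in the differences between hearts was not tested.

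Outside the cluster and its relatives, the 5 strands with a mean of at least 100 reads whose pattern over the 6 hearts was most like the mean of the 9 cluster arms were miR-27a-3p (r = 0.93), miR-145-3p (r = 0.93), miR-29c-5p (r = 0.92), miR-193b-3p (r = 0.89) and miR-872-3p (r = 0.88). They were the highest of 219 strands compared, with a median r of 0.07, and are given as a description. miR-27a-3p had 3426, 3238, 3178, 3555, 3491 and 2843 CPM, lowest in heart 6 like most strands of the cluster.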

How the data were processed

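Small RNA from 6 heart samples was analysed. The authors deposited whole-number read counts per mature microRNA arm and locus for each sample, not normalized; per the file headers each of the 1102 entries has a name, a location and a count. Per the labels' protocols, RNA was taken up in Trizol and libraries came from a TruSeq small RNA kit. Per the submitters' processing notes the build was GRCm38, and DESeq and edgeR are named without a role. For the aligner, the counting program and the placing of reads with more than 1 matching locus, nothing is given in the sources used here.

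Of the entries, 1026 were sense and 76 antisense; 37 antisense entries lay on a hairpin that GENCODE places on the other strand and were counted there, and 39 were kept in library totals only, leaving 1061 arms. CPM used the total of each library, 3966197 to 6007351 counts, and 95% intervals are exact, except Wilson intervals for the shares of reads at Mir19b-1 and Mir92-1. Ratios within libraries were tested with edgeR 4.0.16 in R 4.3.3 (quasi-likelihood, library as a block, mean of at least 10 reads for both features together, adjusted p under 0.05 and at least 2-fold). Spread was tested by chi-square after TMM scaling, and correlations by exact permutation with scipy 1.17.1. The scripts were tested on simulated data. Seeds were read for 1048 arms (98.8%), 831 from RefSeq and 217 from GENCODE hairpins. Where both sources gave a seed the RefSeq one was used, and 778 of 823 were the same in both.

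Alternatives were DESeq2 1.42.0, no library block, no read minimum, other scalings, entries summed over loci of the same name, and each heart left out. Libraries of the same group were not paired. The genes named are the cluster, its paralogs and seed relatives, and the 5 strands most like it. The members and lists were chosen with earlier results of these data known.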

Additional observations from a re-analysis of the deposited data

Results flagged for a closer look

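In 5 of 31 groups of 6 values the highest or lowest heart lay far from the others (Dixon's test at the 95% level); chance alone gives about 1 in 20 groups, and several of these groups share reads. miR-20a-5p was lowest in heart 6, at 61.4 CPM with the next heart at 83.0 CPM, and the Mir20a hairpin as a whole was likewise lowest there, at 62.6 CPM with the next at 84.7 CPM. miR-20a-3p was highest in heart 5, at 4.33 CPM from 26 reads with the next at 2.21 CPM, and the 5p share of Mir20a was lowest in the same heart, at 95.3% with the next at 97.6%. The share of the AAGGUGC seed group from the cluster was 97.7% in heart 4 and 100% in the other 5, which rests on 1 read of miR-18b-5p.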

How the results depend on the processing

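With DESeq2, no library block, no read minimum, loci summed and hearts left out, 6 arm calls were made each time, and 3 calls among neighbours except with loci summed (4). The 0 co-variation calls under other scalings, minimums, prior counts and hearts left out say nothing on stability, since 6 hearts limit the p-values. Leaving out each heart gave 12 to 13 called seed pairs and 6 to 7 arms beyond counting noise. The 13 came without heart 3, when 18 pairs entered. Of the 12 pairs called with all hearts 7 had to differ, so counts of called seed pairs say little on stability. Shares over all pairs and all arms were taken for the main setting only. The ratio of miR-20a-5p to miR-106b-5p changed sign without heart 1 (log2 0.053) and without heart 3 (log2 0.0074), with a range of -0.064 to 0.053 over the hearts left out. At a minimum of 100 mean reads, 4 of 5 cluster arms passed the spread test. The median r over the pairs of the cluster ran from 0.22 to 0.54 with 1 heart left out and was 0.65 without hearts 4 and 5, an alternative chosen after seeing the data, under which the calls were 6 arms, 3 neighbours, 12 seed pairs, 5 of 8 arms beyond counting and 0 correlated pairs. Summing entries of the same name gave 14 called seed pairs and raised the cluster to 2952 CPM, its share of the GUGCAAA group to 100% and of the AUUGCAC group to 66.2%; totals over sense entries only gave 3101 CPM. The higher level and shares follow from the summing, which adds to the cluster the reads placed at X-chromosome entries of the same name. The origin of the added reads was not tested. The rise with sense entries only follows from smaller library totals, since antisense entries are left out of them. The fit with no replicate block changed no call, with 6 arm, 3 neighbour and 12 seed-pair calls. Depth limits the minor arms, above all miR-19a-5p and miR-19b-1-5p.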
